A study of Micromonas commoda with 15 samples.

Results

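The most abundant poly(A) transcripts of unexposed Micromonas commoda cultures were followed into cultures exposed to iron or zinc, each metal given either as oxide particles or as a dissolved salt. Members of the set are the gene models whose mean over the 3 control libraries reached 1000 CPM, where CPM are read counts brought to a common library size with TMM factors, which correct for differences in composition. The rule selected 236 of the 10300 models in the deposited table, or 2.29%. Because the control values chose the members, every comparison of an exposure with the control is given as a description, with no p-value. Tests are given for comparisons among the exposed cultures, which the rule did not use.

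All 15 libraries came from M. commoda strain RCC299, grown in L1 medium at 20 °C with 12 h of light and 12 h of darkness. Flasks of 140 ml were set up while cultures were early in exponential growth, metal was added 24 h later, and 100 ml of culture was harvested after 48 h of exposure. The 5 groups, with 3 libraries each, were Fe2O3 particles (labelled as 3e-05 M and 2.4 mg/L of iron), FeCl3 at the equivalent iron concentration, ZnO particles (labelled as 1e-05 M and 0.8 mg/L of zinc), ZnSO4 at the equivalent zinc concentration, and a control without added metal. The design asks how a particle compares with the ions of its metal, and how each compares with no addition. The molar and mass figures of the labels do not convert into each other by the atomic mass of the metal, and the doses are given as labelled. The iron and zinc doses differ, so a difference between the metals is also a difference in dose. Nothing in the labels says that the 3 libraries of a group came from separate cultures, and the p-values measure the spread between these libraries, which may be technical.

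M. commoda is a single-celled marine green alga of the picoplankton, with a chloroplast and a mitochondrion in a very small cell. In exponentially growing green algae the most abundant poly(A) transcripts commonly include those for light-harvesting proteins, ribosomal proteins and enzymes of carbon fixation. Iron is a cofactor of the photosystems and of many electron carriers, and zinc is a structural or catalytic part of many enzymes. Which of these proteins the members encode cannot be stated, because the files give identifiers without names and none of the 10297 distinct identifiers matched the RefSeq table of 10125 genes of assembly ASM9098v2. Members are therefore called by their abundance rank in control cultures, rank 1 being the highest, and the identifiers of 4 are printed. No gene lengths were at hand, so a rank orders read counts and not molecules of transcript.

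Library totals ran from 33473041 to 48969454 counts, and every member passed the filter on low counts. The lowest member count in any library was 2515 reads, so counting error was small beside the spread between libraries. TMM factors were smallest for control replicate 1, at 0.704, and largest for ZnSO4 replicate 3, at 1.34. TMM-scaled CPM therefore do not have the same sum in every library. In control replicate 1 the members held 44.1% of the counts, while their CPM amounted to 62.6% of the sum that unscaled CPM have. That library was the highest of the 3 controls in 204 of the 236 members, and 169 members stood at 1000 CPM or more in all 3 controls. Fe2O3 particle replicate 3, FeCl3 replicate 1 and ZnSO4 replicate 3 also lay apart from the other replicates of their groups, with median log2 ratios over the members of -0.39, -0.41 and -0.33 to them, against 0.41 for control replicate 1. This set of 4 libraries was picked after the data were seen. It does not include control replicate 2, whose ratio was -0.42. Without the 4 libraries the member median for Fe2O3 particles against the control moved from -0.78 to -0.38. Without control replicate 2 alone it moved the other way, to -0.90. Just inside the limit were members at 1008, 1005 and 1002 CPM, and just outside it were models at 995, 994 and 992 CPM. The member at rank 157 (1320 CPM in controls) has an identifier that stands on another row as well, at 574 CPM there, and the rows were kept apart.

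The members, chosen by high control values, held a smaller mean share of all counts in every exposed group than in the control. The rule favours that direction, and the shares are given as a description. The share was 38.0% ± 0.933 with Fe2O3 particles, 40.1% ± 1.70 with FeCl3, 38.1% ± 0.387 with ZnO particles, 35.6% ± 1.48 with ZnSO4 and 41.8% ± 1.99 in the control (SD, n = 3 each). The ranges of FeCl3 (38.1% to 41.3%) and of the control (40.6% to 44.1%) overlapped, and the other exposed groups lay below every control library. Without control replicate 1 the control mean was 40.6%. Without FeCl3 replicate 1 the FeCl3 mean was 41.1%, so with both left out their order turned. The 95% Wilson interval of a library's share was at most 0.0166 percentage points on either side, which covers counting error only. For the 10 most abundant members alone the share was 5.39% ± 0.363 with Fe2O3 particles, 5.59% ± 0.398 with FeCl3, 5.76% ± 0.0335 with ZnO particles, 4.60% ± 0.406 with ZnSO4 and 7.54% ± 1.13 in the control (SD, n = 3 each).

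**Figure D1:**
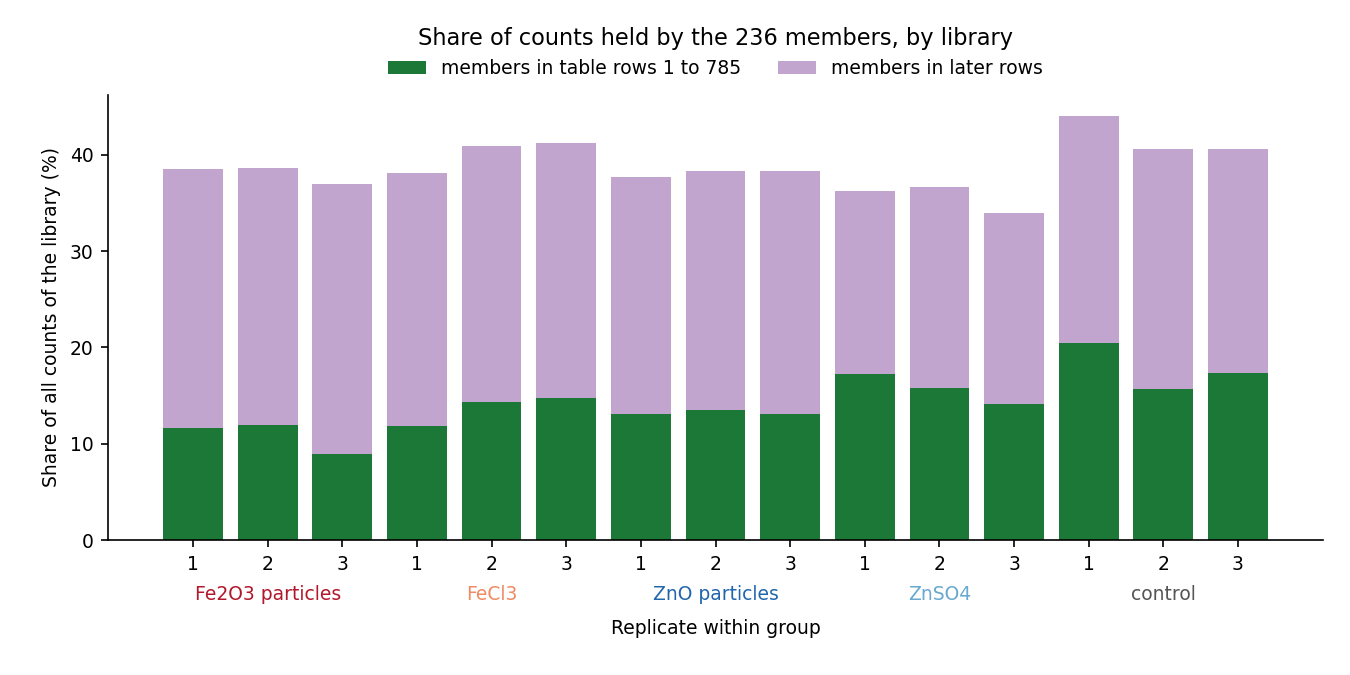
Stacked bars give the share of all counts of each library, in percent, that fell on the members, split into members in rows 1 to 785 of the deposited table and members in later rows. The 3 ZnSO4 libraries have the lowest totals and control replicate 1 the highest, and the part from rows 1 to 785 is lowest in Fe2O3 particle replicate 3.

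Among the 10 most abundant members, ranks 1 and 4 were the first and second model of every exposed group, in either order, and others dropped far down. Rank 1 had 20920, 21926 and 17371 CPM with Fe2O3 particles, 10497, 13250 and 10819 CPM with FeCl3, 16762, 16438 and 17204 CPM with ZnO particles, 7185, 7036 and 5466 CPM with ZnSO4, and 14483, 12314 and 12167 CPM in the control. It was the most abundant model with either particle and with FeCl3, where its mean of 11522 CPM lay within the replicate spread of rank 4 at 11338 CPM. With ZnSO4 it came after rank 4, at means of 6562 ± 952 and 8959 ± 1435 CPM (SD, n = 3). Rank 4 varied least of these leading members, with means of 14576 CPM with Fe2O3 particles, 11338 CPM with FeCl3, 13321 CPM with ZnO particles, 8959 CPM with ZnSO4 and 10023 CPM in the control. The 10 most abundant models of each exposed group were all members of the control set.

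The model at rank 2, wlab.2158.1, had 484, 430 and 287 CPM with Fe2O3 particles, 4023, 4420 and 4048 CPM with FeCl3, 1507, 1563 and 1685 CPM with ZnO particles, 3683, 2137 and 1709 CPM with ZnSO4, and 19245, 9822 and 9518 CPM in the control. No library of any exposure reached the lowest control library. The mean with Fe2O3 particles was 32.0-fold below the control mean, against 8.08-fold with ZnO particles, 5.12-fold with ZnSO4 and 3.08-fold with FeCl3. Rank 3 followed it closely, with means of 354 ± 78.6 CPM with Fe2O3 particles, 3763 ± 158 CPM with FeCl3, 1443 ± 99.7 CPM with ZnO particles, 2240 ± 934 CPM with ZnSO4 and 11704 ± 5092 CPM in the control (SD, n = 3 each). The ratio of rank 3 to rank 2 counts stayed between 0.847 and 0.920 in all 15 libraries. Whether reads are shared between these models is uncertain, since nothing states how the authors' counting treated near-identical copies.

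Rank 6 and rank 10 had the same order of groups as ranks 2 and 3. The model at rank 10, wlab.242991.1, had 295, 237 and 151 CPM with Fe2O3 particles, 1909, 2379 and 2412 CPM with FeCl3, 849, 893 and 947 CPM with ZnO particles, 2356, 1406 and 963 CPM with ZnSO4, and 11310, 5175 and 5473 CPM in the control. Rank 6 averaged 290 ± 89.8 CPM with Fe2O3 particles, 2664 ± 297 CPM with FeCl3, 1129 ± 54.6 CPM with ZnO particles, 2018 ± 833 CPM with ZnSO4 and 7980 ± 4156 CPM in the control (SD, n = 3 each). In each of these members the highest value of all was control replicate 1, and the lowest was Fe2O3 particle replicate 3.

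**Figure D2:**
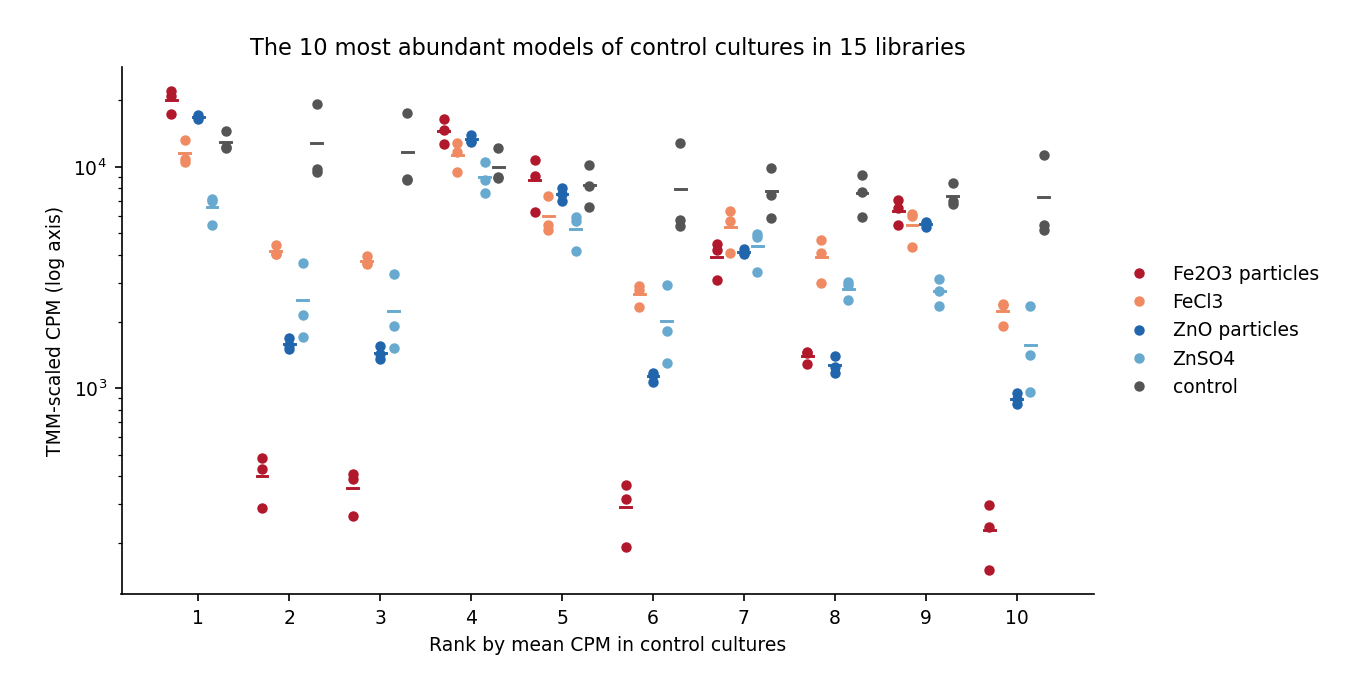
Points give TMM-scaled CPM on a log axis for the 10 members most abundant in control cultures in each of the 15 libraries, and short lines give the group means (n = 3). Ranks 2, 3, 6 and 10 drop to between 228 and 400 CPM on average with Fe2O3 particles, while ranks 1 and 4 have group means of at least 6562 CPM.

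Against the control, calls are counted only to set them beside the share of all models, and no member is given a p. Calls were made at an adjusted p under 0.05 by edgeR's quasi-likelihood F test. With Fe2O3 particles 35 members (14.8%) were called higher, beside 35.6% of all models tested, and 142 (60.2%) were called lower, beside 35.7%. With FeCl3 13 members (5.51%) were called higher, beside 20.5% of all models, and 121 (51.3%) lower, beside 23.4%. With ZnO particles 22 members (9.32%) were called higher, beside 30.1% of all models, and 149 (63.1%) lower, beside 33.7%. With ZnSO4 5 members (2.12%) were called higher, beside 22.2% of all models, and 164 (69.5%) lower, beside 35.6%. Since high control values selected the members, nothing is read from these counts. Median log2 fold changes over the members were -0.78 with Fe2O3 particles, -0.54 with FeCl3, -0.69 with ZnO particles and -0.77 with ZnSO4. Over all models tested the medians were 0.02, 0.01, -0.04 and -0.23 in the same order of exposures.

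The scaling and the libraries that lay apart bear on these counts. Scaled by total counts only, the medians over all models moved to 0.25, 0.29, 0.34 and 0.31, and the members called higher and lower numbered 48 and 135 with Fe2O3 particles, 48 and 97 with FeCl3, 49 and 111 with ZnO particles, and 20 and 92 with ZnSO4. Without the 4 libraries that lay apart, the counts were 53 and 122, 26 and 88, 34 and 135, and 11 and 111 in that order of exposures.

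**Figure D3:**
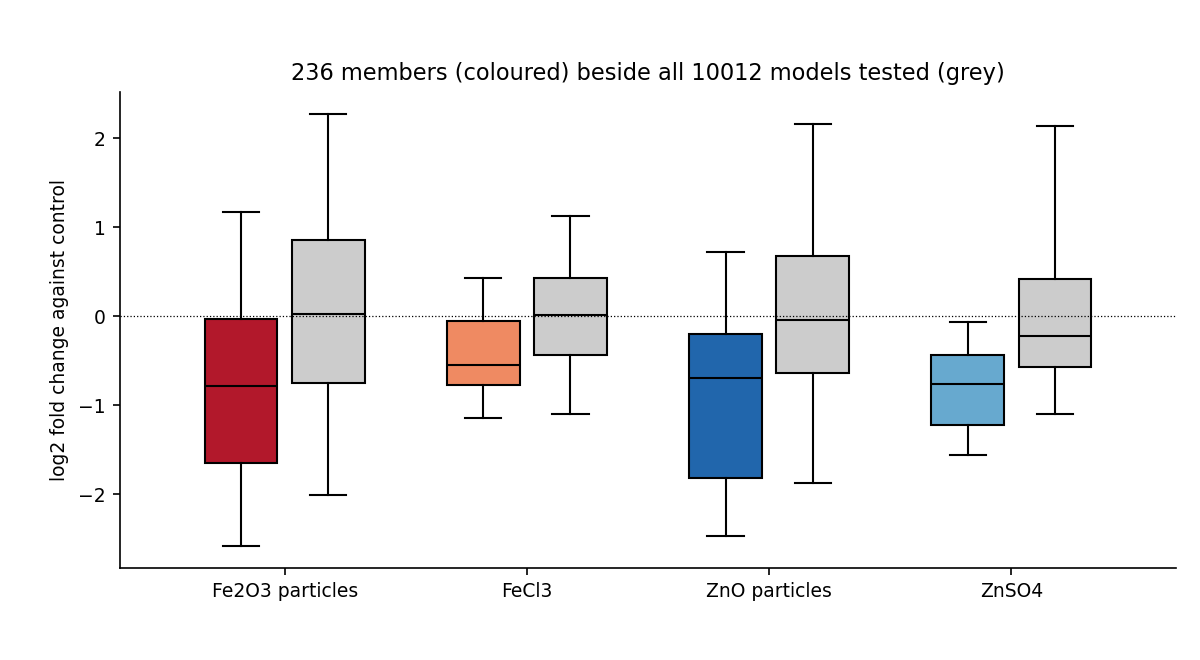
Boxes give the log2 fold change of each exposure against the control for the 236 members (coloured) and for all 10012 models tested (grey), with quartiles as the box, the median as the line and whiskers from the 5th to the 95th percentile. The member medians lie between -0.78 and -0.54, below the medians of all models, and the members were chosen by their control values.

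Among the members, chosen by their control values, large drops were more frequent with the particles and ZnSO4 than with FeCl3. At least a 2-fold lower mean than in the control was found for 98 members with Fe2O3 particles, 21 with FeCl3, 93 with ZnO particles and 83 with ZnSO4. At least a 4-fold lower mean was found for 41, 0, 48 and 3 members in the same order. The share of all models at these limits is not given here. Over all models the log2 quartiles were -0.75 and 0.86 with Fe2O3 particles and -0.43 and 0.43 with FeCl3. They were -0.64 and 0.67 with ZnO particles and -0.57 and 0.41 with ZnSO4. By total counts the member median was -0.22 with ZnSO4 and -0.26 with FeCl3, against -0.77 and -0.54 with TMM. In 157 members all 4 exposures lay below the control, in 7 all 4 lay above it, and in 72 the exposures lay on both sides. Members at least 2-fold lower in all 4 exposures numbered 14, and 27 members stayed within 1.5-fold of the control in all 4.

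The rule, which set 1000 CPM in the controls, favours fewer members at that level in other groups, and the counts are a description. The members still at a group mean of 1000 CPM or more numbered 117 with Fe2O3 particles, 155 with FeCl3, 115 with ZnO particles and 120 with ZnSO4. Models outside the set reached that level in 43 cases with Fe2O3 particles, 15 with FeCl3, 18 with ZnO particles and 4 with ZnSO4. Which models reach 1000 CPM depends on the scaling, as mean TMM factors were 0.823 in the control and 1.19 with ZnSO4. By total counts 169 models reached it in the control, all of them members, and the numbers for the exposed groups are not given here. Of the 236 most abundant models of each exposure, 148 were members with Fe2O3 particles, 194 with FeCl3, 163 with ZnO particles and 188 with ZnSO4. In these bulk samples fewer cells and less RNA per cell cannot be told apart, and CPM are relative levels, so a lower value says nothing about the amount per cell.

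Rank 207 lay furthest above the control over the 4 exposures. It had 6280, 4985 and 6337 CPM with Fe2O3 particles, 4189, 2879 and 3279 CPM with FeCl3, 6093, 5625 and 4998 CPM with ZnO particles, 1549, 2351 and 1575 CPM with ZnSO4, and 1575, 1008 and 653 CPM in the control. The means were 5.46-fold the control with Fe2O3 particles, 5.18-fold with ZnO particles, 3.20-fold with FeCl3 and 1.69-fold with ZnSO4, and the ZnSO4 libraries overlapped the control. Rank 212 had its highest mean with ZnSO4, at 3609 ± 662 CPM, against 1068 ± 242 CPM in the control (SD, n = 3 each). Rank 159 had means of 4968 CPM with Fe2O3 particles, 2723 CPM with FeCl3, 4517 CPM with ZnO particles, 1532 CPM with ZnSO4 and 1297 CPM in the control. Rank 170 was highest with FeCl3, at 3022 ± 262 CPM, against 1217 ± 316 CPM in the control (SD, n = 3 each).

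Among the 4 exposed groups, which no member was chosen on, 168 of the 236 members (71.2%) differed at an adjusted p under 0.05 by edgeR's quasi-likelihood F test, beside 77.8% of all models tested. The share among the members was thus close to the background and somewhat below it. The other 68 members did not pass. The members with the smallest F were ranks 36, 233, 158, 172 and 58. Rank 36 had 2343, 2511 and 1484 CPM with Fe2O3 particles, 1502, 2083 and 2152 CPM with FeCl3, 2070, 2028 and 1999 CPM with ZnO particles, 2544, 1969 and 1547 CPM with ZnSO4, and 3609, 2181 and 2932 CPM in the control. All 4 exposed groups overlapped in this member, whose log2 fold changes in the 4 comparisons between exposed groups ran from -0.06 (SE 0.238) for ZnO against Fe2O3 particles to 0.15 (SE 0.238) for Fe2O3 particles against FeCl3. A failed test does not show that these levels were equal.

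Fe2O3 particles were compared with FeCl3 to separate the particle from its ion at the same labelled iron concentration. In the members, lower calls outnumbered higher ones. With Fe2O3 particles 38 members (16.1%) were higher than with FeCl3, beside 27.5% of all models tested, and 103 (43.6%) were lower, beside 27.7%. The median log2 fold change was -0.38 over the members and -0.02 over all models. Of the members that were lower, 59 differed at least 2-fold, and 12 of the higher ones did. The share of all models at that limit is not given here. Quartiles of the log2 fold change were -1.01 and 0.26 over the members, and -0.51 and 0.56 over all models.

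The steepest drops with Fe2O3 particles relative to FeCl3 were in ranks 3, 2, 10, 6 and 211. The log2 fold changes were -3.41 (SE 0.324, adjusted p = 5.91e-07) for rank 3 and -3.38 (SE 0.328, adjusted p = 7.12e-07) for rank 2 by edgeR's quasi-likelihood F test. In rank 2 the 3 Fe2O3 particle libraries lay at 287 to 484 CPM and the 3 FeCl3 libraries at 4023 to 4420 CPM. Rank 211 had 76, 91 and 107 CPM with Fe2O3 particles and 362, 588 and 608 CPM with FeCl3, a log2 fold change of -2.51 (SE 0.205, edgeR adjusted p = 1.52e-07). Rank 173, next in size, had 231, 346 and 285 CPM with Fe2O3 particles and 1476, 1546 and 1534 CPM with FeCl3, and its FeCl3 mean of 1519 CPM lay above the control mean of 1206 CPM.

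The largest rises with Fe2O3 particles relative to FeCl3 were in ranks 122, 214, 101, 23 and 104. The model at rank 122, wlab.237727.1, had 8851, 9459 and 7451 CPM with Fe2O3 particles, 1375, 1689 and 1726 CPM with FeCl3, 7367, 6944 and 7034 CPM with ZnO particles, 1439, 1517 and 1162 CPM with ZnSO4, and 1681, 1463 and 1461 CPM in the control. The lowest particle library stood at 6944 CPM and the highest salt or control library at 1726 CPM, so the particles overlapped neither the salts nor the control. The log2 fold change of Fe2O3 particles against FeCl3 was 2.43 (SE 0.170, edgeR adjusted p = 3.85e-08). Rank 101 averaged 5944 ± 1054 CPM with Fe2O3 particles and 2389 ± 343 CPM with FeCl3 (SD, n = 3 each), and rank 23 averaged 8499 ± 576 CPM with Fe2O3 particles and 3471 ± 591 CPM with FeCl3 (SD, n = 3 each). At an adjusted p under 0.01 the higher calls of this comparison numbered 25.

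The same comparison was made for zinc. With ZnO particles 44 members (18.6%) were higher than with ZnSO4, beside 22.6% of all models tested, and 79 (33.5%) were lower, beside 20.4%. The median log2 fold change was -0.17 over the members and 0.01 over all models. The rises were led by rank 122, with a log2 fold change of 2.38 (SE 0.170, edgeR adjusted p = 2.73e-07), followed by ranks 101, 44, 49 and 20. Rank 44 had 4705, 4987 and 5074 CPM with ZnO particles, against 1490, 1476 and 1189 CPM with ZnSO4. The drops were led by rank 138, which had 261, 281 and 285 CPM with ZnO particles, against 978, 723 and 589 CPM with ZnSO4, a log2 fold change of -1.46 (SE 0.215, edgeR adjusted p = 7.43e-05). Ranks 211, 177, 198 and 80 followed, at log2 fold changes from -1.42 to -1.28. Without the 4 libraries that lay apart, 41 members were higher and 129 were lower.

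Both particles together were set against both salts together. The particles were higher in 53 members (22.5%), beside 30.7% of all models tested, and lower in 100 (42.4%), beside 28.6%. Over the members the median log2 fold change was -0.26, and over all models it was 0.01. For wlab.237727.1 the log2 fold change was 2.41 (SE 0.120, edgeR adjusted p = 1.1e-09), a 5.30-fold higher level. The model at rank 214, wlab.248002.1, had 2926, 2916 and 1386 CPM with Fe2O3 particles, 720, 723 and 404 CPM with FeCl3, 1943, 1859 and 1780 CPM with ZnO particles, 740, 643 and 564 CPM with ZnSO4, and 1334, 784 and 1066 CPM in the control. Its log2 fold change was 1.75 (SE 0.202, edgeR adjusted p = 2.81e-06), and the lowest particle library was Fe2O3 particle replicate 3, which lay apart. The drops were -2.05 (SE 0.244, edgeR adjusted p = 3.77e-06) for wlab.242991.1 and -2.02 (SE 0.219, edgeR adjusted p = 1.52e-06) for wlab.2158.1. These 4 members were picked among those whose 6 particle libraries did not overlap the 6 salt libraries, so that separation is no support. For wlab.242991.1 and wlab.2158.1 the log2 fold changes in iron alone were -3.29 and -3.38. The smaller zinc difference did not pass its own test in either.

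The iron and the zinc comparison share no library. Of the members, 29 were higher with the particle in both metals, which is 76.3% of the iron list and 65.9% of the zinc list. Over all models tested, 13.1% were higher in both metals, which is 47.8% of the iron list and 58.2% of the zinc list. Another 73 members were lower with the particle in both metals, which is 70.9% of the iron list and 92.4% of the zinc list. Over all models 12.9% were lower in both, which is 46.6% of the iron list and 63.2% of the zinc list. The 29 make up 12.3% of the members and the 73 make up 30.9%. No member was called in opposite directions, while of all models 231 were higher in iron and lower in zinc and 106 the reverse. For the 73 lower members the median log2 fold changes against the control, as a description, were -1.98 with Fe2O3 particles, -0.76 with FeCl3, -2.11 with ZnO particles and -1.32 with ZnSO4. For the 29 higher members they were 0.97 with Fe2O3 particles, 0.10 with FeCl3, 0.38 with ZnO particles and -0.76 with ZnSO4.

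**Figure D4:**
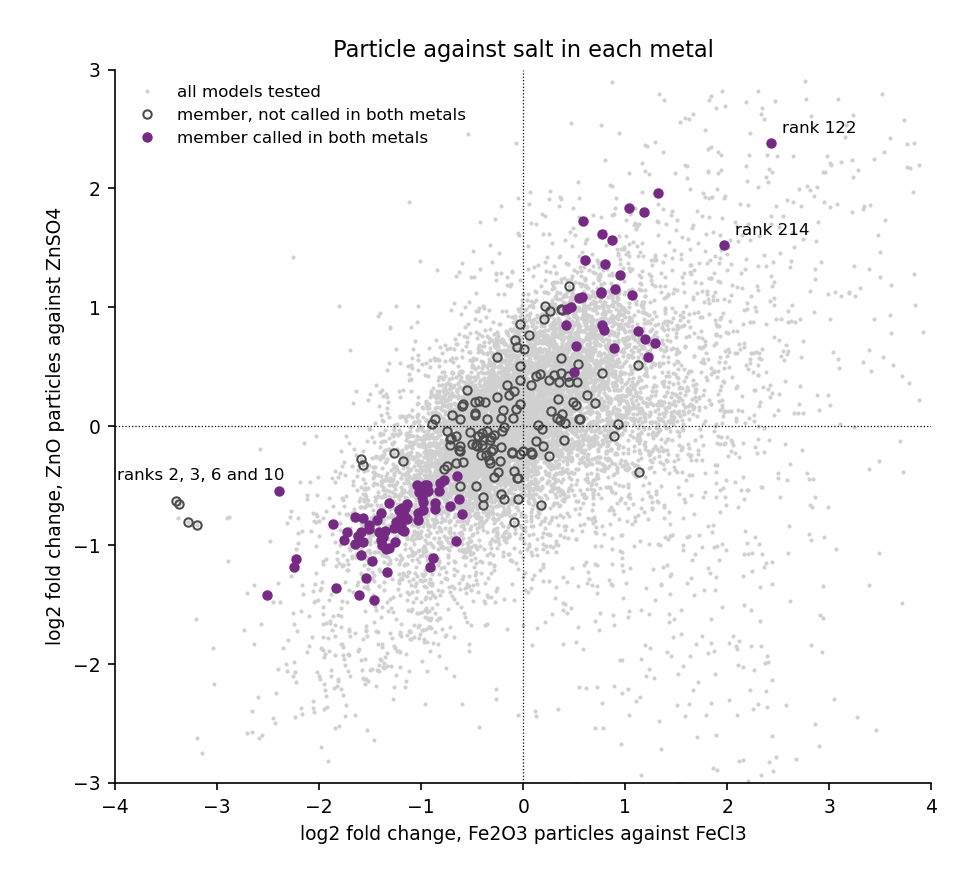
Each point is a gene model, with the log2 fold change of Fe2O3 particles against FeCl3 on the horizontal axis and of ZnO particles against ZnSO4 on the vertical axis, all models tested in grey, members as circles, and members called in both comparisons filled. The 29 members higher with both particles lie in the upper right and the 73 lower with both in the lower left, and 44 models that are no members lie outside the plotted range.

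The salts were compared with each other next, at unequal doses. With ZnSO4 7 members (2.97%) were higher than with FeCl3, beside 22.7% of all models tested, and 114 (48.3%) were lower, beside 30.4%. The median log2 fold change was -0.45 over the members and -0.09 over all models. Rank 212 had 4342, 3431 and 3053 CPM with ZnSO4, against 1059, 1315 and 1408 CPM with FeCl3, a log2 fold change of 1.52 (SE 0.211, edgeR adjusted p = 3.02e-05). Rank 173 had 433, 470 and 322 CPM with ZnSO4, against 1476, 1546 and 1534 CPM with FeCl3, a log2 fold change of -1.90 (SE 0.207, edgeR adjusted p = 3.43e-06). Ranks 169, 161, 29 and 20 followed it with log2 fold changes from -1.55 to -1.46. The split depended on the scaling: by total counts 45 members were higher and 87 lower, and without the 4 libraries that lay apart 37 were higher and 104 lower. Over all models there were 3436 higher and 1434 lower by total counts, and 2951 higher and 1979 lower without those libraries. Without ZnSO4 replicate 3 alone 28 were higher and 61 lower, and without Fe2O3 particle replicate 3, which enters only the scaling and the shared spread, 31 were higher.

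The particles differed from each other in fewer members than the salts did, and in fewer of all models too. With ZnO particles 8 members were higher than with Fe2O3 particles, beside 7.49% of all models tested, and 26 were lower, beside 11.7%. Ranks 3, 2 and 10 were higher, with log2 fold changes of 2.03 (SE 0.306), 1.99 (SE 0.310) and 1.98 (SE 0.345) and edgeR adjusted p-values of 0.000337, 0.000419 and 0.000992. Ranks 114, 169 and 175 were lower. Rank 114 had 1729, 1726 and 2078 CPM with ZnO particles, against 4305, 4510 and 3907 CPM with Fe2O3 particles, a log2 fold change of -1.20 (SE 0.161, edgeR adjusted p = 0.000129). By total counts the balance of calls turned, with 30 members higher and 21 lower, and it turned over all models too, with 1795 higher and 593 lower, against 750 and 1172 with TMM. Without the 4 libraries that lay apart there were 13 higher and 44 lower.

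Whether the particle-to-salt difference itself depended on the metal was tested as an interaction, taken as the zinc difference minus the iron difference. It was above 0 in 37 members (15.7%), close to the 14.4% of all models tested, and below 0 in 4 (1.69%), beside 13.9%. Ranks 3, 2 and 10 led, with log2 interactions of 2.78 (SE 0.425), 2.72 (SE 0.430) and 2.48 (SE 0.477) and edgeR adjusted p-values of 0.000248, 0.000332 and 0.00148. In these 3 members the particle-to-salt log2 difference was between -0.81 and -0.63 for zinc and did not pass the test, and was between -3.41 and -3.29 for iron. Rank 212 had the lowest interaction, at -1.52 (SE 0.293, edgeR adjusted p = 0.00153), with a log2 difference of -0.38 for zinc and 1.13 for iron. Without the 4 libraries that lay apart 36 members were above 0 and 30 below, while over all models 1136 were above and 1820 below, against 1437 and 1392 with all libraries. Leaving out ZnSO4 replicate 3 alone left 11 members above 0.

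The members were unevenly placed along the deposited table, whose row order the rule did not use. The table holds 8 identifiers that name chromosome 1, in rows 195 to 785, and single identifiers that name chromosomes 3, 9, 11 and 17 in rows 2267, 6334, 7607 and 10255. Rows 1 to 785, up to the last identifier that names chromosome 1, make up 7.62% of the rows and held 92 members (39.0%). Of these rows 11.7% were members, against 1.51% of the later rows, and the median control level of all models was 281 CPM in rows 1 to 785 and 15.6 CPM in the later rows. For most models the files do not state a chromosome, so which members lie on chromosome 1 was not established.

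Counts from rows 1 to 785 as a whole moved between the groups. They made up 21.7% ± 3.25 of all counts with Fe2O3 particles, 25.9% ± 3.34 with FeCl3, 26.7% ± 0.595 with ZnO particles, 33.0% ± 2.79 with ZnSO4 and 33.6% ± 3.85 in the control (SD, n = 3 each). By library the share ran from 17.9% in Fe2O3 particle replicate 3 to 37.2% in control replicate 1, 2 of the libraries that lay apart. Models in these rows that were no members also lay below the control, with median log2 fold changes of -0.77 with Fe2O3 particles, -0.55 with FeCl3, -0.59 with ZnO particles and -0.40 with ZnSO4, while models of the later rows that were no members had medians of 0.12, 0.06, 0.03 and -0.19 in that order. The part of base composition, library preparation or the region itself in this was not tested.

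Members of rows 1 to 785 and members of later rows differed most in the comparison of the salts. In rows 1 to 785 the median log2 fold change of ZnSO4 against FeCl3 was 0.05, with 5 members higher and 8 lower. In later rows it was -0.64, with 2 members higher and 106 lower. Models that were no members had medians of 0.20 in rows 1 to 785 and -0.11 in later rows in this comparison. The share of all models called in it is not given here by row range. Among the 4 exposed groups 39 of the 92 members of rows 1 to 785 (42.4%) differed, beside 48.1% of all models tested in those rows. Of the 144 members of later rows 129 (89.6%) differed, beside 80.3% of all models there. The 5 members with the smallest F all lay in rows 1 to 785. Of the 29 members higher with both particles 1 lay in those rows, and of the 73 lower with both particles 22 did. The matching split of all models is not given here. No test was made of these differences between row ranges.

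**Figure D5:**
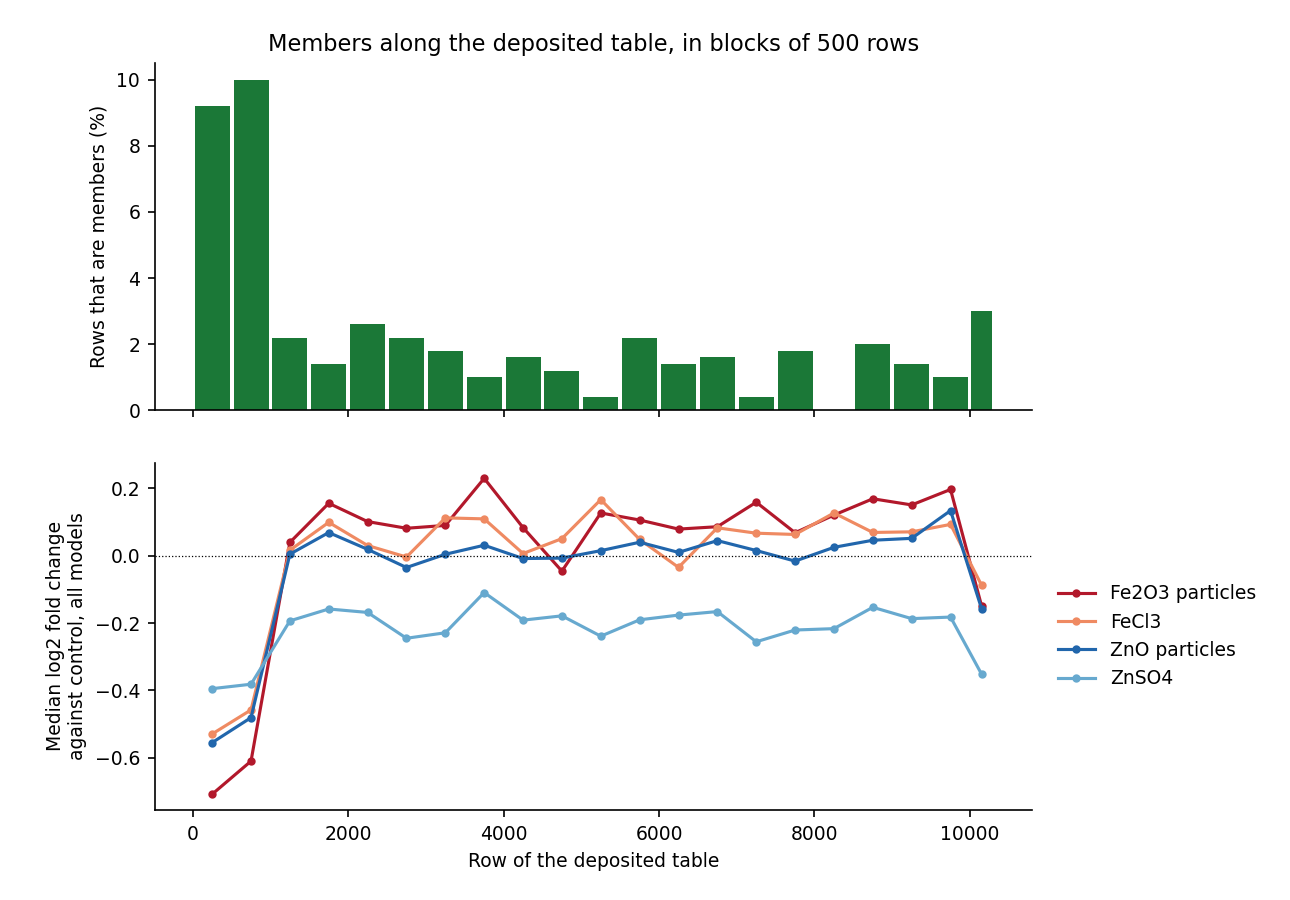
The upper panel gives the percent of rows that are members in successive blocks of 500 table rows, and the lower panel the median log2 fold change of each exposure against the control over all models tested in each block. The first blocks hold 9.20% and 10.0% members, and all 4 exposures have their lowest medians there.

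Some members stood next to each other in the table. There were 17 runs of at least 2 consecutive rows, with 38 members in all, and the longest was 4 rows. That run (rows 538 to 541) held ranks 3, 11, 25 and 10, and the run in rows 106 to 108 held ranks 6, 181 and 2. These 7 members, picked after their values were seen, together took 0.243% ± 0.0490 of all counts with Fe2O3 particles, 1.71% ± 0.0982 with FeCl3, 0.814% ± 0.0494 with ZnO particles, 1.44% ± 0.424 with ZnSO4 and 4.10% ± 1.07 in the control (SD, n = 3 each). The groups kept this order in each run's leading member, ranks 3 and 2. Rank 181 had means of 119 ± 31.7 CPM with Fe2O3 particles, 367 ± 78.7 CPM with FeCl3, 166 ± 15.9 CPM with ZnO particles, 316 ± 68.1 CPM with ZnSO4 and 1183 ± 211 CPM in the control (SD, n = 3 each). The third run of at least 3 rows, rows 622 to 624, held ranks 45, 143 and 233, and rank 233 was among the members with the smallest F.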

How the data were processed

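The deposited table holds whole-number counts per gene model for 15 libraries, which the authors did not visibly normalize. Per the submitters' processing notes the tools were STAR (no version stated), RSEM 1.3.0, Trim Galore 0.4.0 and CASAVA 2.17. Genome build, annotation and strandedness were not given in the sources used here. A mention of HTSeq stands in the name of the table, while the notes list RSEM, so the program that made the counts is not settled. Libraries were poly(A)-selected, per the labels' protocols.

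The analysis used edgeR 4.0.16 under R 4.3.3. Members were taken by their CPM, with TMM factors computed on all rows, averaged over the 3 controls. filterByExpr, with a minimum count of 10, kept 10012 models and removed 288. A single quasi-likelihood fit held all 5 groups and no other term, with a common biological coefficient of variation of 17.3%. The quasi-likelihood F test was applied to each contrast, with Benjamini-Hochberg adjustment of p over all models tested, and the threshold was 0.05. Standard errors (SE) were obtained by dividing the size of the log2 fold change by the root of F. Fold changes of fitted contrasts can differ slightly from ratios of mean CPM. The steps were tested on simulated data. Alternatives used DESeq2 1.42.0 and limma 3.58.1 (voom).

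Members, lists and tests were chosen with earlier results of these data known. The printed identifiers are the members with the largest log2 fold change in each direction of both particles against both salts, among those with an adjusted p under 0.05 and no overlap of libraries. Other members named by rank are ranks 1 to 10, the largest changes in each direction per comparison, and the 5 with the smallest F, with the 3 largest in each direction for the particles against each other, the interaction and each exposure against the control. The row ranges and the members in consecutive rows were described after their values were seen. Replicate pairs differed by more than sampling noise, with a chi-square per degree of freedom between 14.6 and 193, so none was treated as the same library deposited again. This does not show that the libraries came from separate cultures. Coordinates, names and sequences were not used here.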

Additional observations from a re-analysis of the deposited data

Results flagged for a closer look

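The particle-to-salt difference was compared between iron and zinc by edgeR's test of the interaction, which takes the zinc difference minus the iron difference. It was above 0 in 37 members (15.7%), close to the 14.4% of all models tested, and below 0 in 4 members (1.69%), beside 13.9% of all models. Without the 4 libraries that lay apart, 30 members and 1820 models in all were below 0. Rank 3 had a log2 interaction of 2.78, rank 2 had 2.72 and rank 10 had 2.48. Rank 212 had a log2 interaction of -1.52, rank 35 had -0.98 and rank 210 had -0.91. For rank 35 the call was lost in 9 of the 26 alternatives, and its edgeR adjusted p was 0.0427.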

How the results depend on the processing

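The 4 printed identifiers kept their calls under the 26 alternatives. Of the calls of members named in comparisons between exposed groups, the interaction of rank 35 was lost in 9 of the 26 and no other was lost. For ZnO against Fe2O3 particles the balance of calls turned by total counts, and the member median was 0.10 there, against -0.06 with TMM. Counts of calls moved by more than 1.5 times, or medians and shares by more than the replicate spread, as follows, and the cause was not tested.

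Scaled by total counts only, higher calls came to 30 for ZnO against Fe2O3 particles, 45 for ZnSO4 against FeCl3, and, against control, 48 (FeCl3), 49 (ZnO particles) and 20 (ZnSO4). Lower calls came to 9 for the interaction and 92 for ZnSO4 against control, and the medians against control were -0.26 (FeCl3), -0.28 (ZnO particles) and -0.22 (ZnSO4). At an adjusted p under 0.01, 25 members were higher with Fe2O3 particles than with FeCl3, 14 were lower with ZnO than with Fe2O3 particles, the interaction had 12 above and 2 below 0, FeCl3 against control had 6 higher and 77 lower, and ZnSO4 against control had 2 higher. With a mean of at least 5 CPM required, ZnSO4 against FeCl3 had 20 higher, the interaction 7 below 0, FeCl3 against control 37 higher and ZnSO4 against control 8 higher. ZnSO4 against FeCl3 had 11 higher with DESeq2 size factors, 15 with DESeq2 and 14 with only the groups compared in the fit, where FeCl3 against control had 7 higher and ZnSO4 against control 107 lower.

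The alternatives in this paragraph were chosen after seeing the data. With TMM factors from the rows after row 785, ZnSO4 against FeCl3 had 11 higher and the interaction 22 above 0. Without the 4 libraries that lay apart, ZnO particles against ZnSO4 had 129 lower, ZnO against Fe2O3 particles 13 higher and 44 lower, ZnSO4 against FeCl3 37 higher and the interaction 30 below 0. Against control 53, 26, 34 and 11 members were then higher with Fe2O3 particles, FeCl3, ZnO particles and ZnSO4, and the medians were -0.38, -0.25, -0.46 and -0.29.

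A minimum of 500 CPM gave 547 members with 53.0%, 56.0%, 53.6% and 52.8% of counts in the exposed groups (same order) and 59.3% in the control. A minimum of 2000 CPM gave 80 members with 21.4%, 23.0%, 22.1% and 19.6% in the exposed groups and 24.5% in the control, and a median of -0.64 for ZnO particles against control. Without control replicate 1 the rule gave 217 members, 212 of them in the set, and without control replicate 2 it gave 258, with 235 in the set. Scaled by total counts the rule gave 169 members, all in the set.

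Leaving out each library in turn moved FeCl3 against control between 7 and 18 higher (lowest without control replicate 3) and 76 and 137 lower (lowest without FeCl3 replicate 1). ZnSO4 against control moved between 2 and 8 higher (lowest without control replicate 3, highest without ZnSO4 replicate 1) and 105 and 183 lower (lowest without ZnSO4 replicate 3). ZnSO4 against FeCl3 moved between 5 and 31 higher (16 to 31 without Fe2O3 particle replicate 3, ZnSO4 replicate 2 or 3, or any ZnO library) and 61 and 121 lower (each ZnSO4 library lowers it past 1.5 times). ZnO against Fe2O3 particles moved between 14 and 29 lower, with 14 to 17 when any ZnO library or Fe2O3 particle replicate 2 was left out. The interaction moved between 11 and 42 above 0, lowered by each zinc library, Fe2O3 particle replicate 3 and FeCl3 replicate 2, and between 2 and 13 below 0, highest without Fe2O3 particle replicate 3. The medians against control moved between -0.85 and -0.55 for ZnO particles and -0.84 and -0.47 for ZnSO4.

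The replicate numbers of the labels do not pair the libraries. Same-numbered libraries correlated between -0.54 and 0.73, over 0.1 in 18 of 30 pairs, though 11 of 15 libraries correlated best with their own number, a hint from the data only. With the replicate number as a block 169 members differed among the exposed groups, and Fe2O3 particles against FeCl3 had 37 higher and 105 lower.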
